A study of Mus musculus with 12 samples.

Results

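Tcf24, Gpnmb and Gfra1 were followed across the left and right ventricles (LV and RV) of mouse embryos at 14.5 days post coitum. These 3 genes, of 18194 on the array that carry a single symbol, were chosen by measured values of these same arrays: their difference between knockout and wild type was larger in the left than in the right ventricle. Every probe set annotated with one of the 3 symbols alone was kept, which gave 6 of the 45101 probe sets: 1 for Tcf24, 2 for Gpnmb and 3 for Gfra1. Because the values below also chose the genes, they are given as a description, without a test of the members.

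The wild-type embryos (WT) were of strain CD1. The knockout embryos (KO) were Nos3-/- of strain B6.129P2-Nos3tm1unc/J, which lack intact Nos3, the gene of endothelial nitric oxide synthase. The labels name no agent, Cre or transgene. Each of the 4 groups had 3 arrays, and each array carried RNA of pooled ventricles from 15 to 30 embryos, so that the spread between arrays is one between pools. All WT embryos were CD1 and all KO embryos were of the other strain, so in any genotype difference the effects of the allele and of the strain cannot be told apart. In whole ventricles, a larger number of cells of one type and more RNA per cell cannot be told apart either.

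The 3 genes act in unrelated processes. Gfra1 encodes a receptor held in the membrane by a lipid anchor, which binds glial cell line-derived neurotrophic factor (GDNF) and presents it to the tyrosine kinase RET or to the adhesion molecule NCAM1. This signal guides enteric neurons and the ureteric bud, and GDNF from the heart attracts sympathetic axons. Gpnmb encodes a transmembrane glycoprotein of pigment cells, osteoclasts and macrophages, found on melanosomes and lysosomes and controlled by the transcription factor MITF. Tcf24 encodes a basic helix-loop-helix (bHLH) protein, a class of transcription factors that commonly pair with E proteins such as those of Tcf3, Tcf4 and Tcf12 and bind the E-box, CANNTG.

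The 250 bases before the RefSeq start of Gpnmb and of Gfra1 (assembly GRCm38.p6) are shown because the genes share one pattern across the arrays and can be compared letter by letter. Both run 5′ to 3′ on the strand of the gene, with E-boxes in capitals. Gpnmb lies on the plus strand at chr6:49036268-49036517 and Gfra1 on the minus strand at chr19:58455399-58455648.
Gpnmb: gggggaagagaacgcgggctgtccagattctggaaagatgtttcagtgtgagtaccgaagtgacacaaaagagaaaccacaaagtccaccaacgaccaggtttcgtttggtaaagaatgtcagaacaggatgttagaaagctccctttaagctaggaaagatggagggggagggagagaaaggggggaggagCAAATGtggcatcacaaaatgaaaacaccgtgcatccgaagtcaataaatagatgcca
Gfra1: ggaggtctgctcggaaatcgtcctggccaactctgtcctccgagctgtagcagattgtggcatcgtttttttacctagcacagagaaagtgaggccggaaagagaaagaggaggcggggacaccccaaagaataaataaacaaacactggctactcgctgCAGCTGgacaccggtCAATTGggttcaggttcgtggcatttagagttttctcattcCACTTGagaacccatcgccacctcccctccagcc
The Gpnmb stretch held 1 E-box, CAAATG, which begins 58 bases before the start. The Gfra1 stretch held 3, namely CAGCTG at 90, CAATTG at 75 and CACTTG at 34 bases before it. An E-box is common in such stretches, and 66.2% of 32851 RefSeq promoters of the same length held at least 1 on either strand. The narrower form CATGTG or CACATG, present in 12.3% of promoters, and CACGTG, present in 6.02%, had no match in either stretch. CAGCTG occurred in 13% of promoters and here in that of Gfra1 alone. CAGGTG or CACCTG (17.2% of promoters), TATAAA or TTTATA (12.4%) and TGACTCA or TGAGTCA (4.46%) were found in neither. The narrower E-box forms overlap with CANNTG, both strands were read, and a match is a description of letters only.

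Values are log2 expression from the robust multi-array average (RMA), so a difference of 1 is a doubling of signal, and differences are KO minus WT unless stated otherwise. Over all probe sets and arrays the values ran from 2.42 to 15.19 with a median of 5.67. As a reference for low signal, chosen after the values were seen, the 44 probe sets of olfactory receptor genes had mean levels with a median of 3.90 and a maximum of 5.68. Arrays correlated with each other at r between 0.983 and 0.998 over genes, with 1 probe set per gene, and array medians over all probe sets lay between 5.57 and 5.74. Nos3 itself read 8.36, 8.39 and 8.30 in WT left ventricle and 7.95, 8.02 and 7.86 in KO left ventricle, a difference of -0.41 (limma adjusted p = 0.0376). The right ventricular difference was -0.66 (limma adjusted p = 0.00983). Whether its probe set lies in the altered stretch of the allele is not given in the sources used here, and the left ventricular call was lost when any 1 array of either left ventricular group was left out.

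Tcf24 had the largest difference of the 3 genes. Its only probe set, 1439816_at, read 7.55, 7.62 and 7.94 in the 3 KO left ventricles and 6.04, 6.60 and 6.34 in the WT left ventricles. Its right ventricular values were 6.02, 5.97 and 5.85 (WT) and 5.81, 5.70 and 5.67 (KO). The 3 KO left ventricles therefore stood above all other arrays, and the gap from the lowest of them to the highest of the other 9 arrays was 0.95. Group means were 6.33 ± 0.28 in WT LV, 7.70 ± 0.21 in KO LV, 5.95 ± 0.09 in WT RV and 5.73 ± 0.07 in KO RV (SD, n = 3 arrays each). The genotype difference was 1.38 in the left ventricle, 2.60-fold, and -0.22 in the right. All KO right ventricles were below all WT right ventricles, by a small amount that was not tested. How many of all genes show such a separation was not counted. The gene was chosen for a large left minus right of the genotype difference, here 1.60, which a low right ventricular difference makes larger.

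Tcf24 also differed between the chambers within each genotype. In WT the left ventricle was 0.38 higher than the right, and the groups met closely, with the lowest left value at 6.04 and the highest right value at 6.02. In KO the left ventricle was 1.98 higher, 3.94-fold. The order of the 4 group means was KO LV, WT LV, WT RV and KO RV, and no 2 neighbours in this order overlapped in their arrays. Among all probe sets the WT left ventricular mean stood at the 58.1 percentile and the KO mean at 72.3, and the mean over all arrays was above that of all 44 olfactory receptor probe sets.

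Gpnmb was near the same level in 3 groups and higher in the fourth. Probe set 1448303_at read 6.87, 7.17 and 6.76 in KO left ventricle. It read 5.79, 5.56 and 5.72 in WT left ventricle, 5.77, 5.54 and 5.84 in WT right ventricle and 5.66, 5.63 and 5.83 in KO right ventricle. The lowest KO left ventricle was 0.92 above the highest of the other 9 arrays, and those 9 arrays overlapped across their groups. Means were 5.69 ± 0.12 in WT LV, 6.93 ± 0.21 in KO LV, 5.72 ± 0.16 in WT RV and 5.71 ± 0.11 in KO RV (SD, n = 3 each). The genotype difference was 1.24 (2.37-fold) in the left ventricle and -0.01 in the right, so that left minus right was 1.25. Left minus right ventricle was -0.03 in WT and 1.23 (2.34-fold) in KO.

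The signal of Gpnmb outside KO left ventricle was low. The WT left ventricular mean stood at the 49.6 percentile of all probe sets and above 97.7% of the olfactory receptor probe sets, while the KO left ventricular mean stood at the 64.8 percentile and above 100% of them. The other Gpnmb probe set, 1439345_at, lay between 3.30 and 3.66 on all 12 arrays. It differed by -0.01 in the left and -0.13 in the right ventricle, and its mean level was above 15.9% of the olfactory receptor probe sets. The Gpnmb difference thus rests on 1 of 2 probe sets, and the other was at the level of the low reference.

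Gfra1 showed the same order of groups as Gpnmb at a slightly lower level. Probe set 1439015_at read 6.33, 6.70 and 6.89 in KO left ventricle and 5.38, 5.61 and 5.40 in WT left ventricle. WT right ventricles were at 5.63, 5.67 and 5.56, and KO right ventricles at 5.58, 5.66 and 5.49. The KO left ventricles were again the 3 highest arrays, with a gap of 0.66 to the next, and the other 3 groups overlapped in part. Means were 5.46 ± 0.13 in WT LV, 6.64 ± 0.28 in KO LV, 5.62 ± 0.06 in WT RV and 5.58 ± 0.09 in KO RV (SD, n = 3 each). The genotype difference was 1.18 (2.26-fold) in the left and -0.04 in the right ventricle, and left minus right was 1.22. In WT the left ventricle was -0.16 relative to the right, and in KO it was 1.06 higher (2.09-fold). Outside KO left ventricle the signal was low, with arrays at 5.38 to 5.67, below the highest mean level of the olfactory receptor probe sets, 5.68. The WT left ventricular mean stood at the 46.1 percentile of all probe sets and the KO mean at 62.

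The remaining Gfra1 probe sets did not show this pattern. Probe set 1421973_at read 5.02, 4.89 and 5.52 in WT left ventricle and 4.97, 4.91 and 5.38 in KO left ventricle, a difference of -0.06. Its right ventricular values were 5.09, 5.17 and 5.08 in WT and 4.91, 4.96 and 4.86 in KO, where all KO arrays were below all WT arrays. Probe set 1450440_at lay between 3.38 and 3.94, with differences of -0.06 in the left and -0.19 in the right ventricle. Over the 12 arrays these probe sets correlated with each other at r = 0.674, but with the higher-signal one only at 0.099 and 0.078. For Gpnmb the 2 probe sets correlated at -0.208. Which exons or transcript ends each probe set reads is not given in the sources used here, and averaging the probe sets of a gene lowered the left ventricular difference to 0.62 for Gpnmb and 0.35 for Gfra1.

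**Figure D1:**
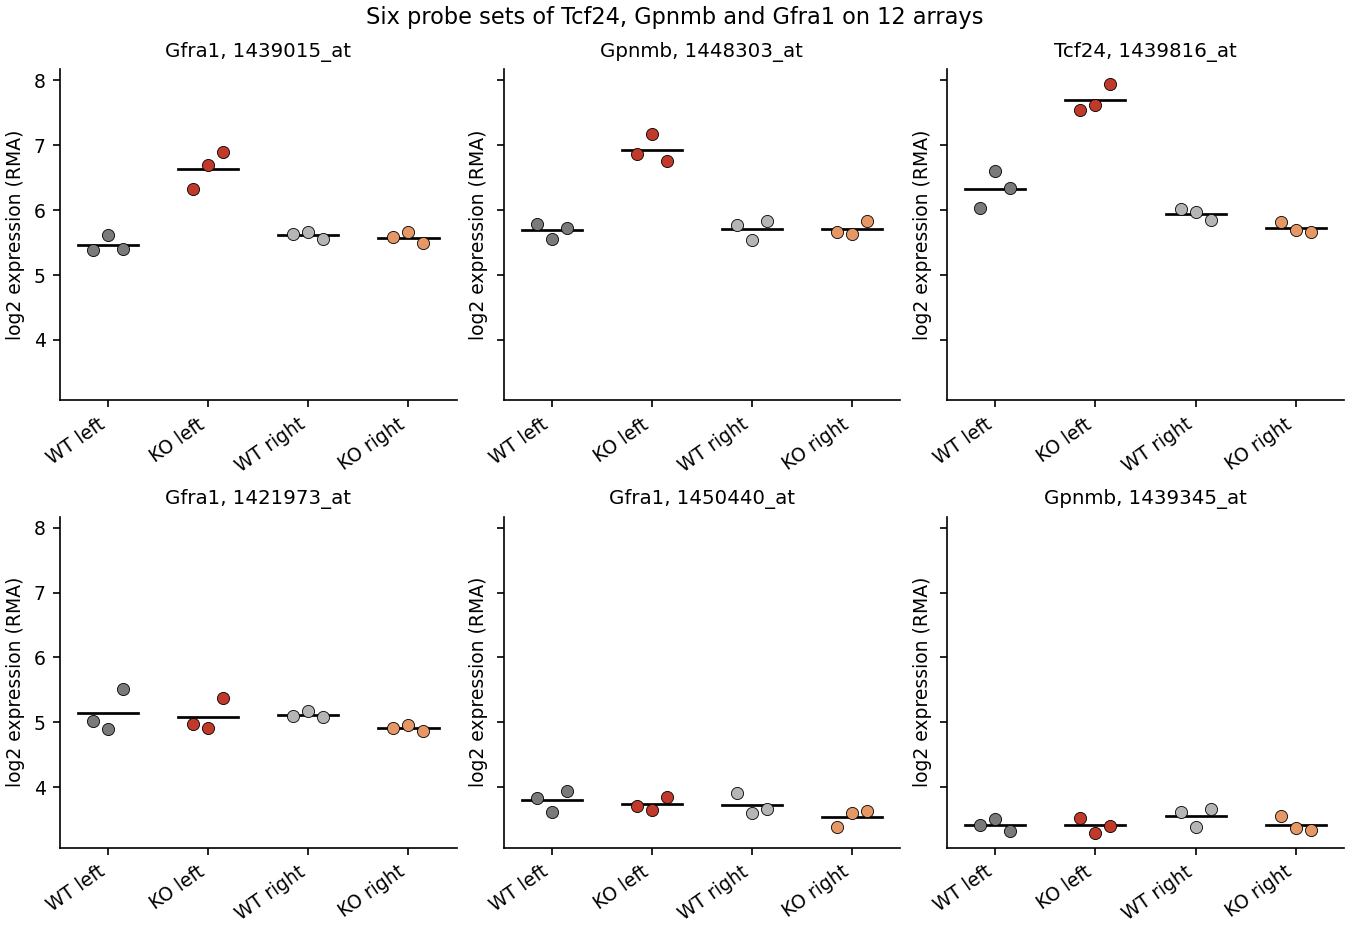
Log2 expression (RMA) of the 6 probe sets of Tcf24, Gpnmb and Gfra1, with 1 point per array and a bar at the mean of each group of 3 arrays, for wild type (WT) and Nos3-/- (KO) left (LV) and right (RV) ventricle. In 3 of the 6 probe sets the KO left ventricles stand 0.66 to 0.95 above every other array, while the second Gpnmb probe set and the other Gfra1 probe sets show no such gap.

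The place of the 3 genes among all genes is a description, since the same values chose them. In a limma model with a mean for each group, 4 of 18194 genes had a genotype difference that differed between ventricles at an adjusted p under 0.05, which is 0.022% of genes, and 3 of those 4 are the members, by which they were chosen. The fourth was Dcpp1. The count of genes at an unadjusted p under 0.05 was 2537. Ordered by left minus right of the genotype difference, Tcf24, Gpnmb and Gfra1 ranked 3, 6 and 8. The next genes in order of p, just outside the threshold, were Rxfp1 (left minus right -1.31), Tmem88b (1.38), Csf2rb (1.03), Lgals3 (1.23) and Cybb (1.21). All 3 members were among the 960 genes (5.28%) whose KO left ventricles were all above the other 9 arrays, and among the 18 genes (0.0989%) where that gap was at least 0.50. Tmem88b had the widest gap of these 18, 1.28.

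The count of genes past the threshold depended on a single array and on the model. Without the third WT right ventricle, 1309 genes (7.19%) passed in place of 4, with array weights 1364 passed, and with the replicate number as a random block within genotype 9 passed. That array differed from the other WT right ventricles in the signal of the poly-A controls, RNAs spiked into the sample before labelling, whose mean over 24 probe sets was 8.96 there and 8.05 and 8.13 in the others. All WT left ventricles had high controls (8.89 to 8.94) and all KO arrays lower ones (7.35 to 8.47), so that the controls moved with the genotype in the left ventricle, and their part in the results was not tested. With a term that marks the 4 arrays of high controls, left minus right of the genotype difference was 1.50 for Tcf24, 1.38 for Gpnmb and 1.16 for Gfra1, against 1.60, 1.25 and 1.22 without it. Because every WT left ventricle is marked, this term is estimated from the third WT right ventricle against the other WT right ventricles alone, so that it carries the deviation of 1 array.

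The 3 members varied together across the 12 arrays. Pearson's r was 0.887 between Tcf24 and Gpnmb, 0.913 between Tcf24 and Gfra1 and 0.909 between Gpnmb and Gfra1. These correlations describe one shared feature, since the same 3 KO left ventricles are the highest arrays for each gene and all values share the arrays and their normalization. Within KO left ventricle the genes did not share an order, as Gpnmb was highest in pool 2 and the others in pool 3.

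The genes with the most similar course to each member, by Pearson's r over the 12 arrays, differed between the members. Next to Tcf24 were Adamdec1 (r = 0.957), Tbx18 (0.951), Tbx5 (0.947), Slc66a2 (0.940) and Chn2 (0.940). Tbx5 and Tbx18 encode T-box transcription factors, of which TBX5 is known for left ventricular and septal development and TBX18 for the epicardium and the sinus horns. Like Tcf24, 4 of these 5 also had a higher WT mean in the left than in the right ventricle by more than 0.38: Tbx5 stood at 9.25 against 8.76, Tbx18 at 9.86 against 9.43, Adamdec1 at 5.81 against 5.11 and Chn2 at 6.77 against 5.66. Because the 5 genes were chosen by their correlation with Tcf24 over the same arrays, this shared chamber difference follows in part from the choice. The size of the KO left ventricular difference was smaller than that of Tcf24 in all 5, from 0.23 for Slc66a2 to 0.97 for Chn2.

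Next to Gpnmb were Lgals3 (r = 0.952), Mpeg1 (0.934), Mb (0.934), Srgn (0.927) and Mcm3ap (0.915). Lgals3 encodes galectin-3, a lectin abundant in macrophages, Mpeg1 a pore-forming protein of macrophages, Srgn the granule proteoglycan serglycin of blood cells, and Mb the myoglobin of muscle. Mpeg1 had means of 7.04 in both WT chambers, 8.08 in KO LV and 7.32 in KO RV. Next to Gfra1 were Bmf (r = 0.960), Csf2rb (0.953), Spg20 (0.951), Traf6 (0.935) and Colgalt2 (0.933). Csf2rb, the shared beta chain of cytokine receptors of myeloid cells, stood at 5.67 in KO LV and between 4.74 and 4.88 in the other 3 groups. No gene was among the 5 nearest of more than 1 member, and the members were not among each other's 5 nearest, where the closest place was the 6th, held by Gfra1 for Gpnmb.

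**Figure D2:**
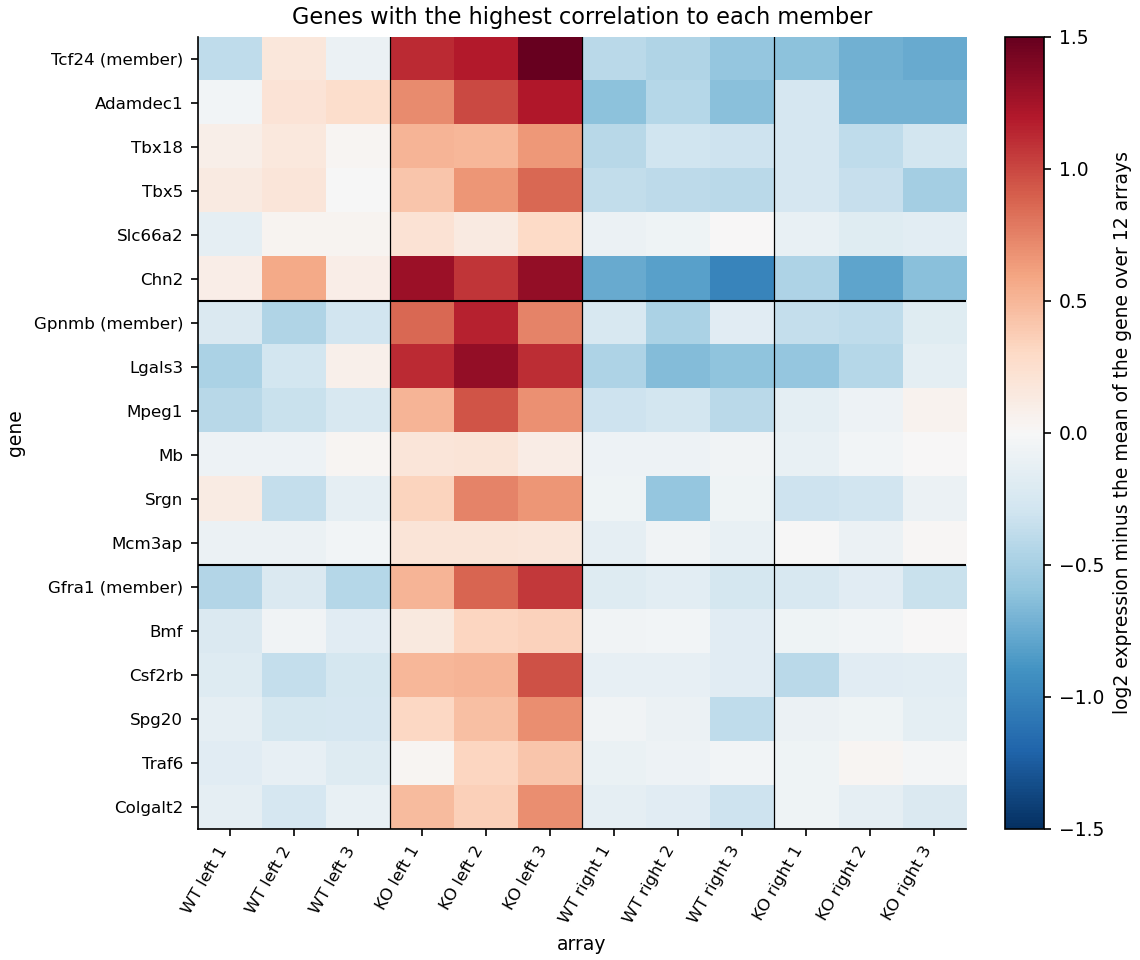
Heat map of Tcf24, Gpnmb and Gfra1, each with the 5 genes of highest Pearson correlation to it, on the 12 arrays; colour is log2 expression minus the gene's mean over the arrays. The 3 KO left ventricular columns are highest for nearly all genes, and 4 of the 5 genes beside Tcf24 are also higher in every WT left than in every WT right ventricle.

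For most ligands and partner receptors of Gfra1 no difference passed the test. Of 4 measured ligands of the GDNF family, 0 rose and 1 fell in KO left ventricle, against a background of 30.9% of all genes past the threshold there (18.6% higher and 12.3% lower). That one was Nrtn, which encodes neurturin, and it fell by 0.45 in the left ventricle (limma adjusted p = 0.00274) and by 0.37 in the right (adjusted p = 0.0259). Gdnf was at 3.55 in WT and 3.88 in KO left ventricle, within the range of the olfactory receptor probe sets, and its difference of 0.33 did not pass (limma adjusted p = 0.0704). Ret, the kinase of the receptor complex, was at 5.70 and 5.60 in the left ventricle, a difference of -0.11 (limma adjusted p = 0.526). Ncam1, the alternative partner, had a difference of 0.17 (limma adjusted p = 0.296), and another of its probe sets, 1439556_at, differed by -1.48. Gfra2, the receptor of neurturin, differed by -0.24 (limma adjusted p = 0.149).

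The median difference of 8 receptors and co-receptors in KO left ventricle was 0.05, beside -0.01 over all genes. Beside 18.6% of all genes higher and 12.3% lower, 0 of these 8 fell and 3 rose. They were Sorl1, a sorting receptor that binds GDNF and GFRA1 (0.74, limma adjusted p = 0.00371), Sdc3, a heparan sulfate proteoglycan that binds GDNF (0.47, adjusted p = 0.0123), and Gas1, a relative of the GFRA receptors best known as a hedgehog co-receptor (0.29, adjusted p = 0.0321). With the mean of their probe sets the calls of Sdc3 (0.15, limma adjusted p = 0.287) and Gas1 (0.16, adjusted p = 0.215) were lost. Only Sorl1 of these 8 rose in the right ventricle, by 0.58 (limma adjusted p = 0.0383), where the background was 8.19% of genes (4.61% higher and 3.58% lower).

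Among 12 measured adaptors and targets of RET, 7 rose and 1 fell in KO left ventricle, with a median of 0.29, beside 18.6% of all genes higher and 12.3% lower. Etv5, a transcription factor induced by RET and by fibroblast growth factor signalling, rose by 1.00 (limma adjusted p = 0.000109), with arrays at 7.24, 7.19 and 7.29 in WT and 8, 8.16 and 8.55 in KO. Gab1, a docking adaptor, rose by 0.68 (limma adjusted p = 0.0051), and Spry2, an inhibitor of receptor kinase signalling, by 0.35 (adjusted p = 0.0131), a call lost with the mean of its probe sets (0.17, adjusted p = 0.242). Dok4 fell by 0.30 (limma adjusted p = 0.0447). These adaptors serve many receptor kinases besides RET. Of the 12, only Etv5 passed in the right ventricle, where it rose by 0.55 (limma adjusted p = 0.0144), a call lost with the mean of its probe sets (0.21, adjusted p = 0.254). Its other probe sets differed by -0.07 and 0.09 in the left ventricle.

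Pigment cell genes are known companions of Gpnmb. Of all genes 18.6% rose in KO left ventricle and 12.3% fell. Of 16 genes of the MITF family and the melanocyte programme, 3 rose there, a share near that of all genes. Of these 16, 0 fell, and the median difference was 0.01. The largest was Ednrb, the endothelin B receptor of neural crest and endothelial cells, which rose by 1.52 in the left ventricle (limma adjusted p = 1.47e-05) and by 0.86 in the right (adjusted p = 0.00271). Kit, a receptor of melanoblasts and blood progenitors, rose by 0.79 (limma adjusted p = 0.00014) and by 0.41 (adjusted p = 0.0231). A second Kit probe set at lower signal differed by -0.04 in the left and 0.12 in the right ventricle. With the mean of their probe sets the right ventricular calls of Ednrb (0.50, limma adjusted p = 0.152) and Kit (0.27, adjusted p = 0.0948) were lost. Dct, a melanin enzyme, rose by 0.71 in the left ventricle (limma adjusted p = 0.00937), and its right ventricular difference of 0.06 did not pass (adjusted p = 0.864). Mitf differed by 0.14 (limma adjusted p = 0.309) and Pmel, a melanosome protein close to GPNMB in sequence, by -0.07 (adjusted p = 0.691). Another Mitf probe set differed by 0.22 in the left and -0.50 in the right ventricle. The summed level of 8 melanocyte markers, as the mean of their log2 values, was 4.84 to 4.90 in WT LV and 4.88 to 4.98 in KO LV, and 7 of the 8 had a mean below the median of all values. Their part in the Gpnmb difference was not tested.

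Of 14 lysosome and macrophage genes, 4 rose in KO left ventricle and 0 fell, with a median of 0.10. These counts stand beside 18.6% of all genes higher and 12.3% lower. Lgals3 was closest to the members in pattern, with arrays at 7.62, 7.82 and 7.61 in KO left ventricle and 6.02, 6.22 and 6.58 in WT left ventricle. WT right ventricles were at 6.04, 5.85 and 5.90 and KO right ventricles at 5.92, 6.07 and 6.35, so that only the KO left ventricles stood apart. Lgals3 rose by 1.41 in the left ventricle (limma adjusted p = 2.21e-05), differed by 0.18 in the right (adjusted p = 0.429), and had a left minus right difference of 1.23 (adjusted p = 0.0582). Cd68, a lysosomal protein of macrophages, rose by 0.52 (limma adjusted p = 0.00426) and Tyrobp, an adaptor of myeloid receptors, by 0.55 (adjusted p = 0.0256). Sdc4, a syndecan that is not specific to macrophages, rose by 0.81 (limma adjusted p = 0.000154) and by 0.74 in the right ventricle (adjusted p = 0.000732), but its second probe set differed by -1.22 and -1.59. Also in the right ventricle, Ctsk, a lysosomal protease, rose by 0.41 (limma adjusted p = 0.0367) and Apoe, a lipid carrier, fell by 0.37 (adjusted p = 0.0218).

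The mean of the macrophage markers was highest in the KO left ventricles, as Gpnmb was. Unlike Gpnmb, this mean was also higher in every KO than in every WT right ventricle, by a narrow margin (6.82 against 6.80). Single markers did not all follow it, and their right ventricular differences ranged from -0.20 to 0.92. Of 14 such markers 9 rose in KO left ventricle and 0 fell, beside 18.6% and 12.3% of all genes, and in the right ventricle 3 rose, beside 4.61%. Their mean log2 level ranged over 6.66 to 6.77 in WT LV, 7.18 to 7.35 in KO LV, 6.65 to 6.80 in WT RV and 6.82 to 7.14 in KO RV. The KO left ventricles were thus above all other arrays, and the KO right ventricles lay between. Among the defining markers Csf1r, a growth factor receptor, differed by 1.13 in the left and 0.43 in the right ventricle, Ptprc, the leukocyte antigen CD45, by 1.40 and 0.76, and Adgre1, an adhesion receptor of macrophages, by 0.91 and 0.20, while Lyz2 differed by -0.10 and Timd4, at 3.64, by -0.03. The left minus right difference passed by limma in 0 of the 14, beside 0.022% of all genes, so that 0 is what most lists of this size would give. At an unadjusted p under 0.05 the count was 5 of the 14, beside 2537 of 18194 genes. The part of macrophages in the results for the 3 genes was not tested.

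The other marker lists are given because Gfra1 and Gpnmb are also known from nerve, mesenchyme and epithelium, and their counts stand beside 18.6% of all genes higher and 12.3% lower. Of 11 measured nerve and Schwann cell markers 3 rose and 1 fell in KO left ventricle, with mean levels of 5.77 to 5.90 in WT LV and 5.87 to 5.96 in KO LV, ranges that overlap. Of 7 endothelial and endocardial markers 5 rose, with means of 8.66 to 8.96 in WT LV, 9.31 to 9.54 in KO LV and 9.25 to 9.38 in KO RV. Of 11 epicardial and mesenchymal markers 3 rose and 2 fell, and their means were 9.43 to 9.78 in WT LV and 9.69 to 9.80 in KO LV. Fetal liver and lung markers were lower in the KO left ventricles, at 5.66 to 6.24 against 6.46 to 7.43, and 4 of 10 fell. Cardiomyocyte markers, which define the dissected muscle, were high on all arrays, from 12.88 to 13.39, but not even between the groups. Their means were 12.88 to 12.94 in WT LV, 13.22 to 13.31 in KO LV, 12.97 to 13.26 in WT RV and 13.30 to 13.39 in KO RV. Of 8 such markers 2 rose and 0 fell in KO left ventricle, and the largest difference was that of Myh6, 1.76 (limma adjusted p = 4.66e-05). Of 9 markers of gut and airway epithelium 2 rose, of 8 of smooth muscle and pericytes 4 rose and 2 fell, and of 6 erythroid ones 1 rose and 1 fell.

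**Figure D3:**
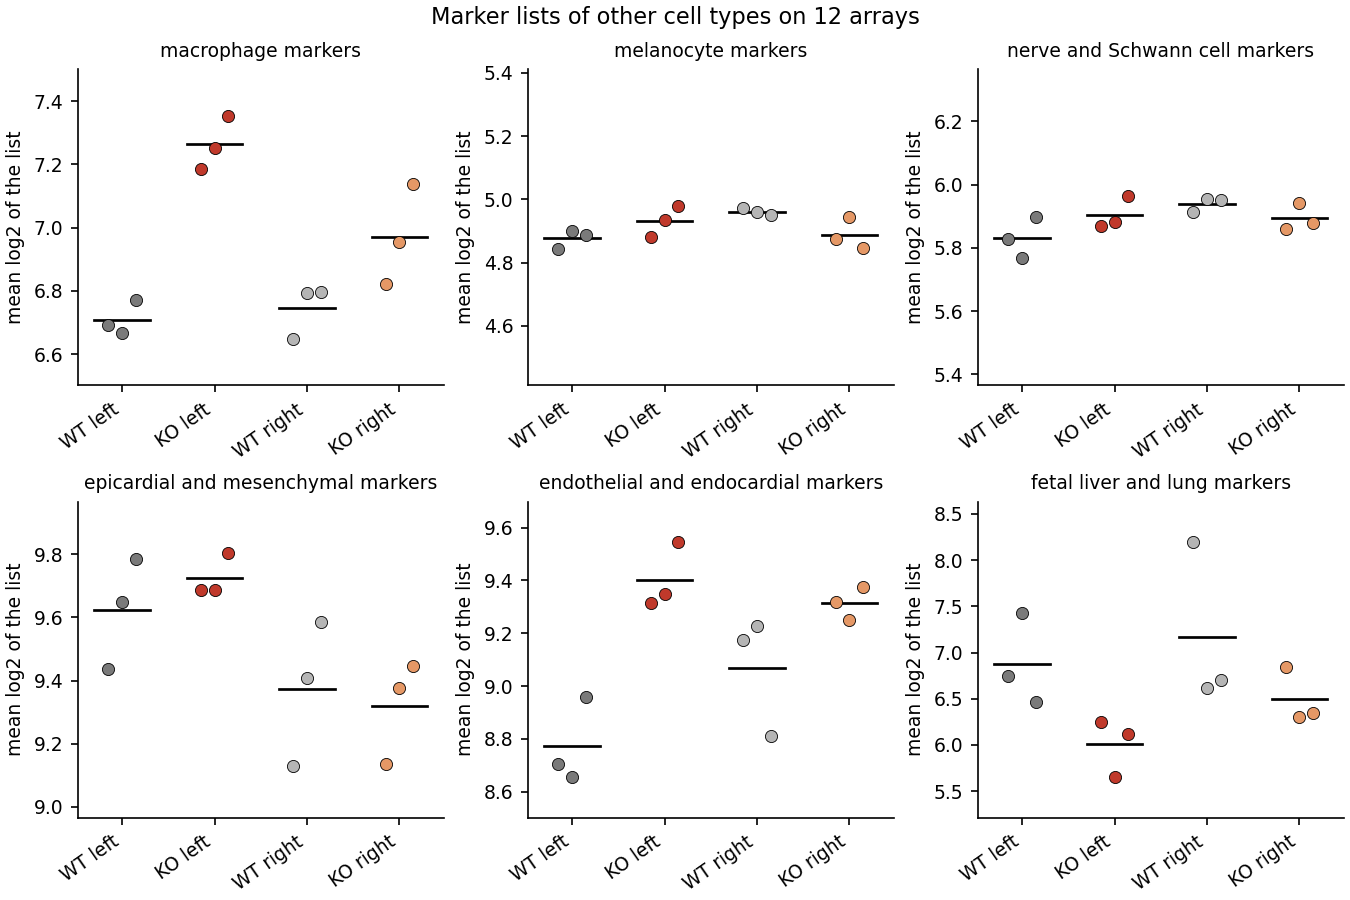
Mean log2 expression of marker lists of other cell types, with 1 point per array, by genotype and ventricle; the vertical axes differ between panels. The macrophage list is highest in the 3 KO left ventricles (7.18 to 7.35), the melanocyte list stays between 4.84 and 4.98 on all arrays, and the fetal liver and lung list is lowest in KO left ventricle.

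Relatives of Tcf24 were read as the general bHLH partners and the tissue-restricted factors. Of 7 E proteins and Id factors, 3 rose and 1 fell in KO left ventricle, with a median of 0.17. The shares of all genes there were 18.6% higher and 12.3% lower. Tcf12, an E protein, rose by 0.65 (limma adjusted p = 0.00158) and Tcf4, also an E protein, by 0.53 (adjusted p = 0.0311). The third E protein, Tcf3, differed by 0.17 (limma adjusted p = 0.129). Other probe sets of Tcf12 differed by -1.36, -0.68, 0.12 and 0.01, and the probe sets thus disagree in sign. Id2, an inhibitor of E proteins, rose by 0.33 (limma adjusted p = 0.0131) and by 0.46 in the right ventricle (adjusted p = 0.00601), and Id3, of the same family, fell by 0.38 in the left (adjusted p = 0.0115).

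Over all genes 18.6% rose and 12.3% fell in the left ventricle, and 4.61% rose and 3.58% fell in the right. Of 17 class II bHLH factors, the class that pairs with E proteins, the median difference was -0.05 in the left. In either ventricle 0 of them rose and 1 fell. That one was Tcf21, a factor of the epicardium and of cardiac fibroblast precursors, which fell by 1.12 in the left ventricle (limma adjusted p = 3.54e-05) and by 1.09 in the right (adjusted p = 7.23e-05). Its means were 10.08 in WT and 8.96 in KO left ventricle, and 9.63 and 8.54 in the right. Tcf21 therefore differed in both chambers by a like amount, whereas Tcf24 differed upward in the left and slightly downward in the right. A second Tcf21 probe set at lower signal differed by 0.17 and 0.40, and the mean of both was -0.34 in the right ventricle (limma adjusted p = 0.0927).

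Over all 7 lists, 20 of 78 measured related genes rose and 4 fell in KO left ventricle, 30.8% beside the 30.9% of all genes. In the right ventricle 7 rose and 3 fell, 12.8% beside 8.19%. For 0 of the 78 did the genotype difference differ between ventricles at the limma threshold, beside 0.022% of all genes. At an unadjusted p under 0.05 it differed for 10 of the 78, beside 2537 of 18194 genes. Neither count sets the related genes apart from all genes. With 1 array left out in turn, the left ventricular call was lost in 8 of 12 fits for Dok4, in 4 for Gas1, in 3 each for Sdc3, Tyrobp and Tcf4, and in 1 each for Spry2 and Id2. Right ventricular calls were lost in 6 of 12 fits for Sorl1 and Ctsk, in 5 for Nrtn, in 4 for Apoe, in 3 for Kit and in 2 for Etv5. Without the third WT right ventricle, 7 of the 78 passed for left minus right, and the largest was Lgals3 at 1.24.

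**Figure D4:**
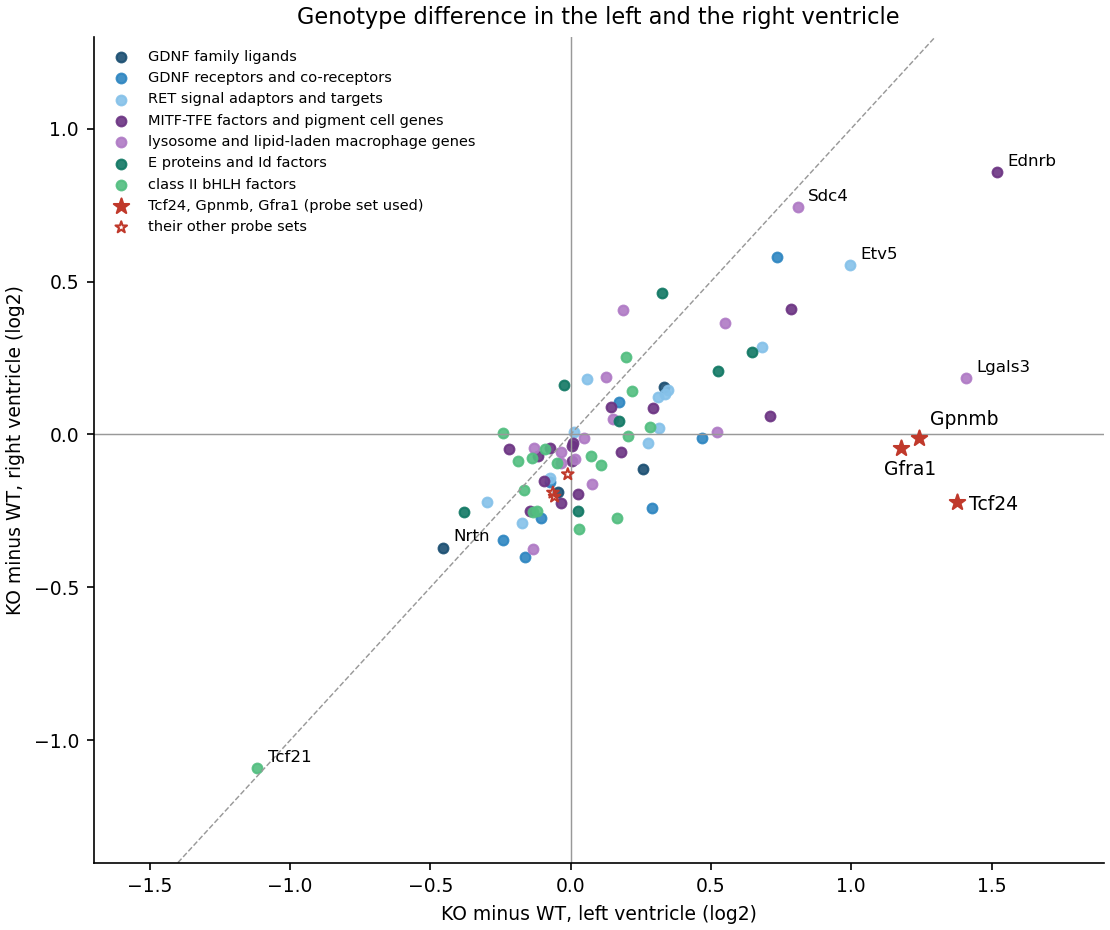
Genotype difference (KO minus WT, log2) in the left ventricle on the horizontal axis and in the right ventricle on the vertical axis, for the 3 members and the related genes, with 1 point per gene. The members lie at 1.18 to 1.38 in the left and at -0.22 to -0.01 in the right ventricle, with Lgals3 (1.41 and 0.18) the nearest of the related genes, while Ednrb (1.52 and 0.86) and Tcf21 (-1.12 and -1.09) differ in both.

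The genes next to each member along its chromosome were also read, with 3 measured neighbours on either side, a choice made after the values were seen. Tcf24 lies on chromosome 1, Gpnmb on 6 and Gfra1 on 19, so the members are not near each other. Left minus right of the genotype difference ranged from -0.59 to 0.59 in the 18 neighbours. Since the members were chosen for a large value of it, smaller values beside them were to be expected of nearly any genes. No conclusion about the regions is drawn from this. Every neighbour past the threshold is named here, beside 30.9% of all genes in the left ventricle and 8.19% in the right. Beside Tcf24, Snhg6, a host gene of small nucleolar RNAs, rose by 0.94 in the left and by 1.53 in the right ventricle (limma adjusted p = 0.00138 and 0.000103). Sgk3 rose by 0.23 in the left ventricle (limma adjusted p = 0.0473), and Ppp1r42 differed by 0.02 and -0.20. Beside Gpnmb, Malsu1, a mitochondrial ribosome assembly factor, fell by 0.61 in the left ventricle (limma adjusted p = 0.00273) and Igf2bp3, an RNA-binding protein of fetal tissue, rose by 0.34 (adjusted p = 0.0219). Beside Gfra1, Atrnl1 rose by 0.96 in the left ventricle (limma adjusted p = 0.000587) and differed by 0.37 in the right (adjusted p = 0.146).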

How the data were processed

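Per the labels' protocols, pooled ventricles gave total RNA that was made into biotinylated cRNA for Affymetrix arrays. The authors deposited a log2 value for each of 45101 probe sets and 12 arrays, computed with RMA per the submitters' processing notes. All sample columns were used (0 were not). For the probe sets a genome build is not given in the sources used here, and detection calls were not used here. Because RMA brings all arrays towards one distribution, a change in the make-up of the RNA can shift other genes. The deposited values did not share one distribution in full, as array medians ran from 5.57 to 5.74.

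The platform annotation named 1 symbol for 34958 probe sets, several for 932 and none for 9211. By gene ID 34754 matched a RefSeq table (GRCm38.p6) and 0 symbols changed. The probe set with the highest mean over the arrays stood for a gene, which gave 18194 genes without a filter on dim ones. Genes were tested with limma 3.58.1 (lmFit, eBayes) in R 4.3.3 on 12 arrays, with 1 coefficient per group, Benjamini-Hochberg adjustment over all genes and a threshold of 0.05, after the code was tested on simulated data. Adjusted p-values are limma's. Sequences, correlations and figures were made with Python 3.11.15, pandas 2.3.3 and matplotlib 3.10.9. With 3 arrays a group, the number of arrays limits the precision.

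The members, the gene lists and the other settings were chosen with earlier results of these data known. Named were the members, Nos3, in each list and comparison up to 3 genes past the threshold per direction, 10 related genes whatever their values (Ret, Gdnf, Ncam1, Gfra2, Mitf, Pmel, Lgals3, Tcf3, Tcf12 and Tcf21) and the 5 genes most like each member, with predicted genes passed over. Marker genes, neighbours and genes named beside them were chosen after their values were seen. Of 83 related genes 78 had a probe set of their own. Replicate numbers are shared between the groups. Deviations from the group means of same-numbered arrays correlated at 0.111, 0.262 and 0.306 between the right ventricles of the genotypes, which pairs them by the rule that each exceed 0.1, and at 0.011, 0.144 and 0.423 between the left, which does not. Between the ventricles of one genotype they correlated at 0.210, 0.291 and 0.265 in KO, past the rule, and at 0.231, -0.008 and 0.145 in WT, not past it. The labels give no reason for a pairing, and the main model had no block.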

Additional observations from a re-analysis of the deposited data

Results flagged for a closer look

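For Tcf24 left minus right of the genotype difference was 1.60 on the log2 scale. It is listed because the arrays of the genotypes separated in opposite directions in the chambers. Every KO left ventricle was above every WT left ventricle (7.55 to 7.94 against 6.04 to 6.60), which follows in part from the choice of the gene. Every KO right ventricle was below every WT right ventricle (5.67 to 5.81 against 5.85 to 6.02). The difference between the chambers was not tested, since the gene was chosen for it in these arrays. The right ventricular part, -0.22, was small beside the left ventricular part, 1.38. How many of all genes show such a separation of the right ventricular arrays was not counted. For Gpnmb and Gfra1 the right ventricular arrays of the genotypes overlapped.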

How the results depend on the processing

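In the probe sets used, every KO left ventricle stood above all other arrays for each member, and the members were chosen by these values. Leaving 1 array out could therefore not change the sign of their left ventricular difference. This difference kept its sign under every setting run for it. When each array was left out in turn it ranged from 1.23 to 1.51 for Tcf24, from 1.13 to 1.33 for Gpnmb and from 1.05 to 1.33 for Gfra1, and left minus right from 1.45 to 1.73, from 1.14 to 1.34 and from 1.10 to 1.38. The right ventricular differences ranged from -0.27 to -0.18, from -0.10 to 0.05 and from -0.09 to 0. Averaging all probe sets gave 0.62 in the left ventricle and 0.69 for left minus right for Gpnmb, and 0.35 and 0.50 for Gfra1, since it adds probe sets without the difference. The term for arrays of high poly-A controls, which in the left ventricle rests on 1 right ventricular array, gave 1.43 for Gpnmb there. For counts and single genes the cause of a change was not tested unless stated. Of all genes, 5617 passed in the left ventricle (60.1% of them higher), against 197 with the control term and 3093 at a threshold of 0.01, and 4064 to 6319 with 1 array left out. The higher share was 77.9% after median centring and 50.3% after quantile normalization once more, and in the right ventricle 69.5% after centring beside 56.2%. In the right ventricle 1490 passed, against 2858 with array weights, 928 with the compared groups alone, 967 with the control term, 533 at 0.01, and 762 to 1813 with 1 array left out. For left minus right 4 passed, against 1364 with array weights, 9 with a random replicate block, 1 with the control term, 2 at 0.01, and 2 each with quantile normalization again, the mean of probe sets and every probe set on its own, and 2 to 1309 with 1 array left out. With the replicate number as a fixed block, the pairing check having failed in the left ventricle, 2 passed, and the block changed no call of a named related gene. Of 78 related genes 24 passed in the left ventricle, against 3 with the control term, 12 at 0.01, and 16 to 25 with 1 array left out. In the right ventricle 10 passed, against 5 with the compared groups alone, 4 at 0.01 and 4 to 11 with 1 array left out, the lowest without the first KO right ventricle. For left minus right 0 passed, against 5 with array weights, 1 (Lgals3) with a random replicate block and 0 to 7 with 1 array left out. Nos3 missed the threshold in the left ventricle after median centring (-0.31) and with the control term (-0.87), and ranged from -0.45 to -0.37 there and from -0.82 to -0.53 in the right with 1 array left out. The mean of probe sets turned Sdc4 to -0.20 in the left and -0.42 in the right ventricle and Tcf12 to -0.25 in the left, because their probe sets disagree, and the control term turned Sorl1 to -0.033 and Tcf4 to -0.17 in the left. Of 1193 values of named related genes under these settings, these 5 reversals included, 1091 kept their side of the threshold, 86 lost the call and 11 gained it.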
